A study of Danio rerio with 16 samples.

Results

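Transcripts of 10 genes that build, pace and signal from heart muscle were followed in whole zebrafish larvae exposed to triptolide (TP), a diterpene from a medicinal vine, and compared with vehicle controls. The genes were vmhc, myh6, myl7, cmlc1, tnnt2a, nppa, nppb, atp2a2a, ryr2b and slc8a1a. They were chosen by name for their role in cardiac muscle, each symbol matched 1 Ensembl gene, and together they made up 10 of 31812 genes and 23 of 57264 transcripts. Wild-type larvae of the WIK strain, 5 days old, were held for 6 h in 1.6 µM TP (8 dishes, the TP group) or in vehicle without TP, DMSO (8 dishes, the control group), and the 30 larvae of a dish were pooled into 1 RNA library. No group carried an engineered allele or transgene, and both groups share strain, age and exposure time. Since whole larvae were extracted, the heart is a small source among many tissues, and no library was made from dissected hearts.

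The heart of the zebrafish larva has an atrium and a ventricle whose muscle cells contract when calcium reaches the troponin complex of the sarcomere. On each beat calcium is released from the sarcoplasmic reticulum through the ryanodine receptor, pumped back into it by the SERCA ATPase, and extruded from the cell by the sodium-calcium exchanger. Mutations in several of these genes are known in zebrafish as silent heart (tnnt2a), weak atrium (myh6), tell tale heart (myl7) and tremblor (slc8a1a). TP is known as an inhibitor of transcription, acting on the factor TFIIH that opens promoters for RNA polymerase II.

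Library totals ran from 19679120 to 75490916 counts in control and from 26631852 to 41093922 in TP libraries, and control library 2 was the deepest. Values below are CPM, the counts of a gene scaled to a library total of 1000000, and fold changes were fitted with edgeR on library totals. A gene was called up or down at an adjusted p of 0.01 or less. Under this scaling, 4.59% of 24462 genes tested were called up and 41.9% down, and the typical gene, by the median, had a log2 fold change of -0.35. TMM factors, a scaling that centres most genes on no change, moved that median to -0.00107, with 15.9% of genes up and 16.5% down. Mitochondrial transcripts took 20.3% to 24.8% of control and 25.0% to 29.2% of TP counts, and fits on totals without ribosomal and mitochondrial transcripts are among the alternatives given at the end. A further difference followed the library numbers. The transcript si:dkey-153m14.1 took 0.548% to 0.923% of counts in control libraries 1 to 4 and 3.38% to 6.42% in control libraries 5 to 8, and in TP libraries 0.900% to 2.18% and 3.16% to 4.06%.

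For 8 of the 10 heart muscle genes the change did not pass the test, and all 8 but nppb lay closer to 0 than -0.35, the value of the typical gene under library totals. The clearest change was in slc8a1a, the sodium-calcium exchanger of heart muscle, whose TP mean was 0.563 of the control mean under library totals. It was also called down with TMM factors and with DESeq2. The ventricular myosin gene vmhc was the other gene called down, with a TP mean of 0.877 of control, and that call did not hold under other scalings. Thus 2 of the 10 genes were down and 0 up by edgeR, against 41.9% down and 4.59% up of all genes. At an unadjusted p under 0.05 from edgeR, 3 of the 10 were higher and 4 lower. The share of all genes at that looser threshold is not given here. DESeq2 called 4 of the 10 up and 1 down, against 17.9% up and 17.8% down of all genes. With limma 0 were up and 1 down, against 4.56% and 40.7%. The TP libraries lay wholly below the control libraries for 2 members, which held for 20.9% of all genes, and wholly above for 0 members, which held for 1.90%. The median log2 fold change of the 10 was -0.07, or 0.28 above that of all genes, and 8 of the 10 were above the all-gene median. All these values are relative to the other transcripts of a library, so the amount of RNA per larva was not measured. A lower value need therefore not be a lower amount. In RNA from whole larvae, fewer heart muscle cells and less RNA per cell cannot be told apart.

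**Figure D1:**
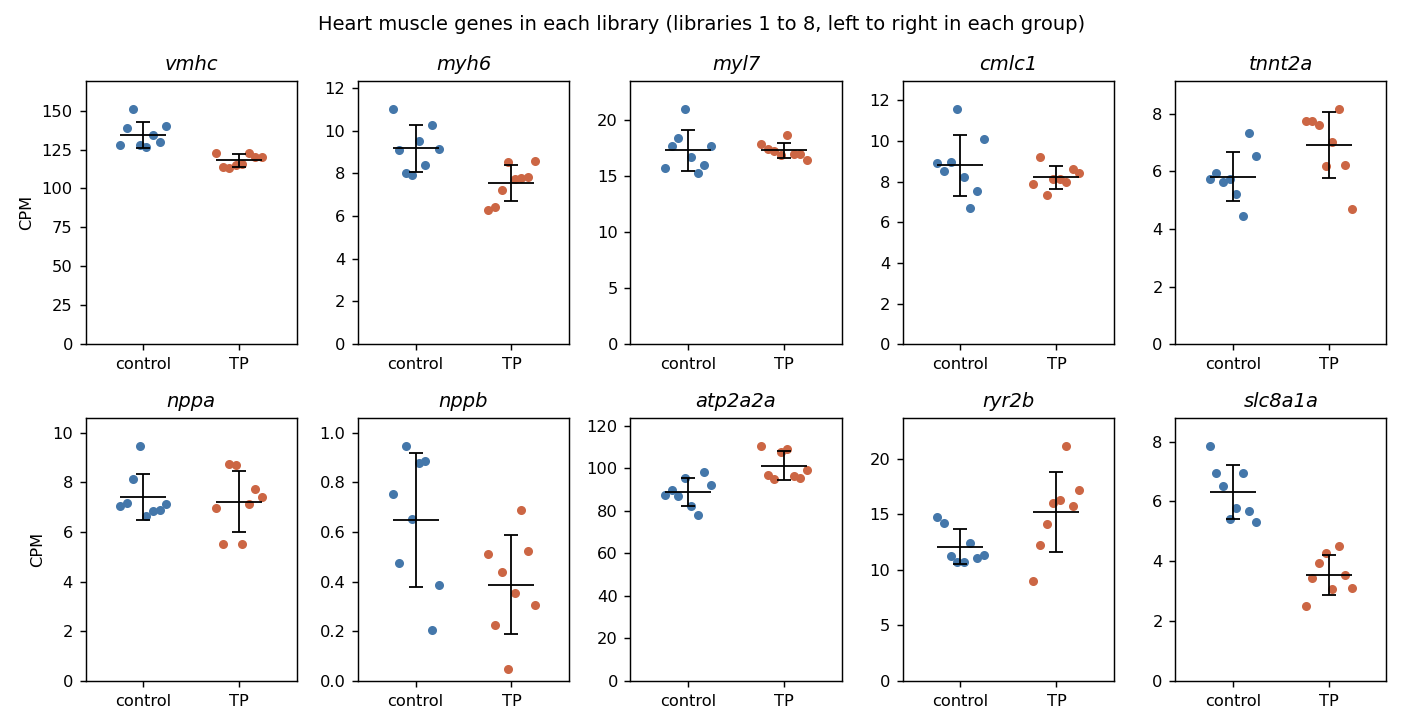
CPM of each of the 10 genes in the 16 libraries, with 8 control libraries in blue and 8 TP libraries in orange, and black bars for the mean and SD. Each panel starts at 0 and has its own scale; the groups separate for vmhc and slc8a1a, and overlap for the other 8 genes.

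The 5 sarcomere genes included the most counted member. vmhc, the ventricular myosin heavy chain, lies on chromosome 2 from 24600869 to 24614260 (GRCz10, as all positions here) and held 43.8% of the counts of the 10 genes. Its control libraries ran from 127 to 151 CPM (median 132) and its TP libraries from 113 to 123 CPM (median 118). All 8 TP libraries were thus below all 8 control libraries, by a small margin. The mean went from 134.5 ± 8.32 to 117.9 ± 3.87 CPM (SD, n = 8), a log2 fold change of -0.19 ± 0.05 (SE; adjusted p = 0.0052 in edgeR). The call was close to the threshold: it was lost without any of control libraries 2, 3 and 8 or TP libraries 2, 3, 4 and 5, with adjusted p up to 0.014 over all single omissions. With TMM factors the log2 fold change turned to 0.15 (adjusted p = 0.079, edgeR).

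myh6, the atrial myosin heavy chain, lies on chromosome 20 from 53772085 to 53778019 and was a much smaller part of the sarcomere counts. It ran from 7.91 to 11.0 CPM in control (median 9.10) and from 6.27 to 8.59 CPM in TP libraries (median 7.75). Of the TP libraries 6 were below every control library and the remaining 2 lay within the control range. The log2 fold change of -0.28 ± 0.09 (SE; adjusted p = 0.014 in edgeR) missed the threshold, and passed it without control library 4 (-0.31, adjusted p = 0.0091) and with a term for libraries 1 to 4 against 5 to 8 (-0.28, adjusted p = 0.0099). With TMM factors it was 0.06. Expressed relative to the median gene, the values of vmhc and myh6 were 0.16 and 0.07 higher on the log2 scale. Those of the light chain genes myl7 and cmlc1 were 0.35 and 0.25 higher, and whether heavy and light chains differ was not tested.

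With library totals the light chain genes showed no difference larger than the spread between pools. This depended on the scaling, and myl7 was called up with TMM factors, as given below. myl7, the regulatory myosin light chain of both chambers, lies on chromosome 8 from 40417522 to 40425350. It was between 15.2 and 21.0 CPM in control (median 17.2) and between 16.5 and 18.6 CPM in TP libraries (median 17.1), so that all TP values fell inside the control range. Means were 17.3 ± 1.85 and 17.3 ± 0.675 CPM (SD, n = 8), and the log2 fold change was -0.0013 ± 0.07 (SE; adjusted p = 0.99 in edgeR). cmlc1, an essential myosin light chain on chromosome 5 from 63486421 to 63487216, was between 6.69 and 11.6 CPM in control (median 8.73) and between 7.35 and 9.20 CPM in TP libraries (median 8.13). Its TP values also lay inside the control range, and its log2 fold change was -0.10 ± 0.10 (SE; adjusted p = 0.37 in edgeR).

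tnnt2a, the cardiac troponin T that ties the troponin complex to tropomyosin, was the sarcomere gene with the highest relative level after TP. It lies on chromosome 23 from 5719252 to 5751200. Control libraries ran from 4.44 to 7.32 CPM (median 5.73) and TP libraries from 4.68 to 8.16 CPM (median 7.30). Of the TP libraries 4 were above every control library, while TP library 8 was lower than all but 1 of them. The log2 fold change was 0.25 ± 0.12 (SE; adjusted p = 0.072 in edgeR) and reached 0.60 (adjusted p = 4.9e-04) with TMM factors.

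The natriuretic peptide genes encode hormones that heart muscle releases on stretch, nppa from working myocardium of the embryonic chambers and nppb as its close relative. Both lie on chromosome 8, nppb from 48620752 to 48621775 and nppa from 48624271 to 48628895, with 2495 bases between them. nppa was between 6.64 and 9.47 CPM in control (median 7.08) and between 5.52 and 8.76 CPM in TP libraries (median 7.29). The groups overlapped throughout, with 2 TP libraries below the control range and none above it. The log2 fold change was -0.04 ± 0.11 (SE; adjusted p = 0.79 in edgeR), or 0.30 with TMM factors (adjusted p = 0.023).

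nppb was the scarcest of the 10. It was between 0.203 and 0.947 CPM in control (median 0.704) and between 0.0492 and 0.690 CPM in TP libraries (median 0.397), the lowest being 2 counts in TP library 4. Control libraries 7 and 8 were low as well, and the groups overlapped over most of their range. The log2 fold change of -0.77 had a standard error of 0.36 and did not pass the test (adjusted p = 0.075 from edgeR), on 2 to 36 counts per library. In libraries 1 to 4 alone it was -1.21, and in libraries 5 to 8 alone -0.37; the difference between these values was not tested.

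Among the calcium transport genes the members moved in different directions. atp2a2a, the SERCA2 pump of cardiac and slow skeletal muscle, lies on chromosome 8 from 11649527 to 11707308. It was between 77.9 and 98.3 CPM in control (median 88.7) and between 95.1 and 111 CPM in TP libraries (median 97.8). Of the TP libraries 4 were above every control library and none was below the control mean. The mean went from 88.8 ± 6.67 to 101 ± 6.69 CPM (SD, n = 8), a log2 fold change of 0.19 ± 0.06 (SE; adjusted p = 0.013 in edgeR) that missed the threshold and passed it without control library 7 (0.21, adjusted p = 0.0082) and with the term for library numbers (0.19, adjusted p = 0.0086). It was 0.19 in libraries 1 to 4 and 0.19 in libraries 5 to 8, and 0.53 with TMM factors (adjusted p = 1.7e-05).

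ryr2b, a cardiac-type ryanodine receptor, lies on chromosome 17 from 19989296 to 20098408. It was between 10.7 and 14.7 CPM in control (median 11.3) and between 8.95 and 21.1 CPM in TP libraries (median 15.8), the widest relative spread among TP libraries after nppb. Of the TP libraries 5 were above every control library, and TP library 1 was below every control library. The log2 fold change was 0.33 ± 0.13 (SE; adjusted p = 0.034 in edgeR). Without TP library 1 it was 0.41 and called up (adjusted p = 0.0031). Libraries 5 to 8 alone gave 0.63 (adjusted p = 1.8e-04) and libraries 1 to 4 alone 0.01 (adjusted p = 0.95), and the difference between these values was not tested.

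slc8a1a, on chromosome 11 from 30285418 to 30364630, was between 5.30 and 7.85 CPM in control (median 6.14) and between 2.49 and 4.52 CPM in TP libraries (median 3.49). The highest TP library was below the lowest control library. The mean went from 6.30 ± 0.902 to 3.55 ± 0.672 CPM (SD, n = 8), a log2 fold change of -0.83 ± 0.12 (SE; adjusted p = 1.2e-05 in edgeR). It was -0.91 in libraries 1 to 4 and -0.74 in libraries 5 to 8, and it remained between -0.88 and -0.77 when any single library was left out. With TMM factors it was -0.48 (adjusted p = 7.1e-04), and it was called down under each of the 29 alternatives tried. Among all genes tested, 15.0% had a lower log2 fold change than slc8a1a, so a fall of this size was common in these larvae, whereas ryr2b, tnnt2a and atp2a2a stood at the 92.9, 90.5 and 88.2 percentiles.

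**Figure D2:**
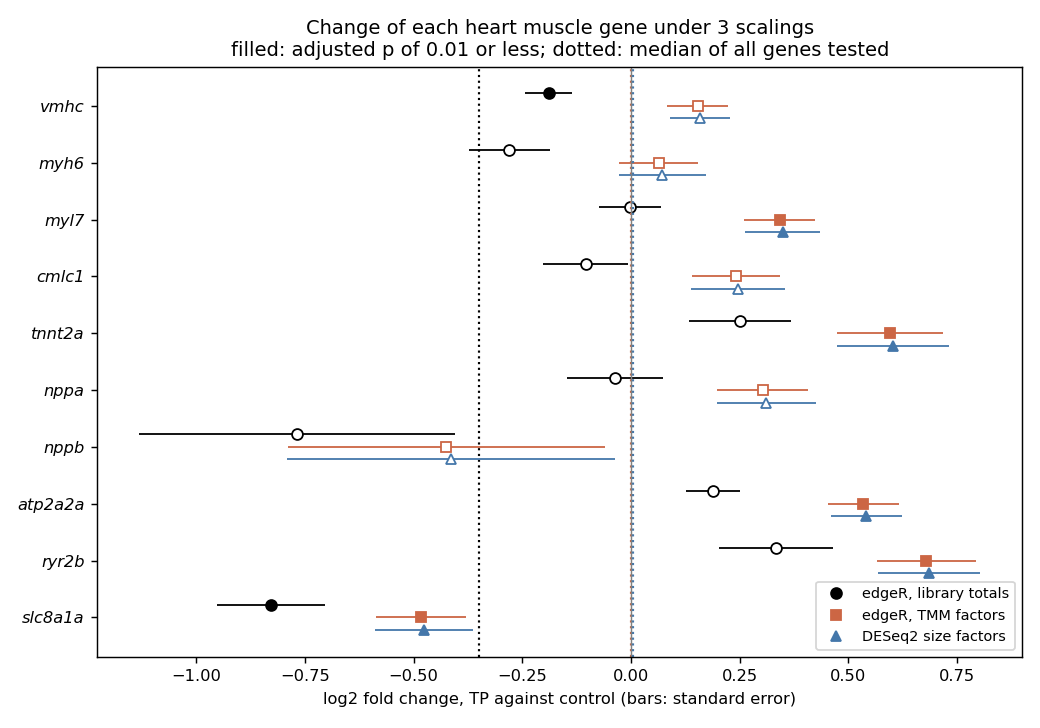
Log2 fold change of each gene, TP against control, with standard errors, under edgeR with library totals (black), edgeR with TMM factors (orange) and DESeq2 (blue); filled symbols passed an adjusted p of 0.01. Dotted lines mark the median of all genes, at -0.35 under library totals and close to 0 under the others; slc8a1a is filled and below 0 under each, and vmhc is filled under library totals alone.

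The choice of scaling shifted every member upward and moved 5 of the 10 from below to above 0. With TMM factors 4 of the 10 genes were called up, against 15.9% of all genes, and 1 down, against 16.5%. Those up were myl7 (0.34, adjusted p = 0.0018 from edgeR), tnnt2a, atp2a2a and ryr2b (0.68, adjusted p = 5.8e-05), and the gene down was slc8a1a. The signs of vmhc, myh6, myl7, cmlc1 and nppa flipped between library totals and TMM factors, as they did with DESeq2. The signs of tnnt2a, atp2a2a and ryr2b (above 0) and of nppb and slc8a1a (below 0) were the same under all 3 scalings.

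Ratios of counts within a library do not depend on the scaling, and 13 of them were compared between groups with a 2-sided exact permutation test, adjusted over the 13. The exchanger and the pump moved apart. The ratio of slc8a1a to atp2a2a was between 0.0568 and 0.0899 in control (median 0.0724) and between 0.0226 and 0.0470 in TP libraries (median 0.0363). No TP library reached the lowest control library. The log2 ratio was 1.03 lower in TP libraries, and the difference of -1.03 had a standard error of 0.15 (exact permutation p = 1.6e-04, the smallest that the 12870 splits can give, adjusted p = 5.1e-04).

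Both genes also parted from the 5 sarcomere genes summed, a sum in which vmhc held 76.6% of control counts. By gene, log2 fold changes were -0.19 for vmhc, -0.28 for myh6, -0.0013 for myl7, -0.10 for cmlc1 and 0.25 for tnnt2a. The value for atp2a2a was 0.19. Ratios to the sum thus mostly compare with vmhc, and ratios to each sarcomere gene alone were not tested. The ratio of atp2a2a to the sum was between 0.454 and 0.575 in control and between 0.588 and 0.697 in TP libraries. This was a log2 difference of 0.34 (standard error 0.05), higher in 8 of 8 TP libraries than in any control library. The ratio of slc8a1a to the sum was between 0.0289 and 0.0464 in control and between 0.0154 and 0.0277 in TP libraries. This was a log2 difference of -0.69 (standard error 0.13), lower in 8 of 8. Both had the same smallest exact p. The ratio of ryr2b to the sarcomere genes was 0.46 higher on the log2 scale (standard error 0.15, exact permutation adjusted p = 0.021). The groups overlapped there, with TP library 1 below the control range, TP library 2 inside it and 7 of 8 TP libraries above the control mean. The difference was 0.19 in libraries 1 to 4 and 0.73 in libraries 5 to 8, and whether these differ was not tested.

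Among the sarcomere genes themselves, tnnt2a rose against the 4 myosin genes summed, a sum made up mostly of vmhc counts. The median ratio went from 0.0342 to 0.0483. The log2 difference was 0.41 (standard error 0.12, exact permutation adjusted p = 0.018), with 7 of 8 TP libraries above the control mean. The ventricular to atrial myosin ratio, vmhc to myh6, had medians of 15.3 and 15.6, and its log2 difference of 0.09 had a standard error of 0.10 (exact permutation adjusted p = 0.39). The regulatory to essential light chain ratio, myl7 to cmlc1, differed by 0.09 (standard error 0.06, exact permutation adjusted p = 0.22). Thus neither the balance of the chambers' myosins nor that of the light chains passed the test. Both differences were smaller than the SD of the log2 ratio in control (0.22 and 0.14) and in TP libraries (0.17 and 0.12). Other ratios that did not pass were nppa against the sarcomere genes (0.10, standard error 0.11), nppb against them (-0.74, standard error 0.50) and nppa against nppb (0.84, standard error 0.52). Their exact permutation adjusted p were 0.39, 0.22 and 0.18. Without control library 7 the last was 1.05 (adjusted p = 0.049).

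Heart and skeletal muscle were also set against each other. The 5 cardiac sarcomere genes were compared with mylpfa, myhz1.1 and tnnt3b, a myosin light chain, a myosin heavy chain and a troponin T of fast skeletal muscle. Their ratio was between 0.00699 and 0.00801 in control and between 0.00464 and 0.00571 in TP libraries, so that the groups were far apart relative to their width. The log2 difference was -0.48 (standard error 0.04, exact permutation p = 1.6e-04, adjusted p = 5.1e-04), -0.59 in libraries 1 to 4 and -0.38 in libraries 5 to 8. vmhc held 76.6% of the sarcomere counts in control and so weighed most in this sum, and without it the difference was -0.37 (standard error 0.06), again with no overlap between groups. Taken 1 by 1, a split made after seeing the data and not tested, the differences were -0.52 for vmhc, -0.61 for myh6, -0.33 for myl7, -0.42 for cmlc1 and -0.09 for tnnt2a. The groups did not overlap for the first 3, and for cmlc1 and tnnt2a 5 and 1 TP libraries were below all control libraries. The 3 skeletal genes were called up, with log2 fold changes of 0.30 (mylpfa), 0.34 (myhz1.1) and 0.36 (tnnt3b) from edgeR. The pumps showed a smaller shift of the same sign. atp2a2a fell against atp2a1, the SERCA1 pump of fast muscle, by 0.17 on the log2 scale, and the difference of -0.17 had a standard error of 0.06 (exact permutation adjusted p = 0.036). The adjusted p rose above 0.05 when any of control libraries 1, 2, 4 and 7 or TP libraries 2, 3, 5, 6, 7 and 8 was left out, up to 0.073. ryr2b against the skeletal ryanodine receptors ryr1a and ryr1b differed by 0.09 (standard error 0.13, exact permutation adjusted p = 0.50), with -0.21 in libraries 1 to 4 and 0.39 in libraries 5 to 8.

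**Figure D3:**
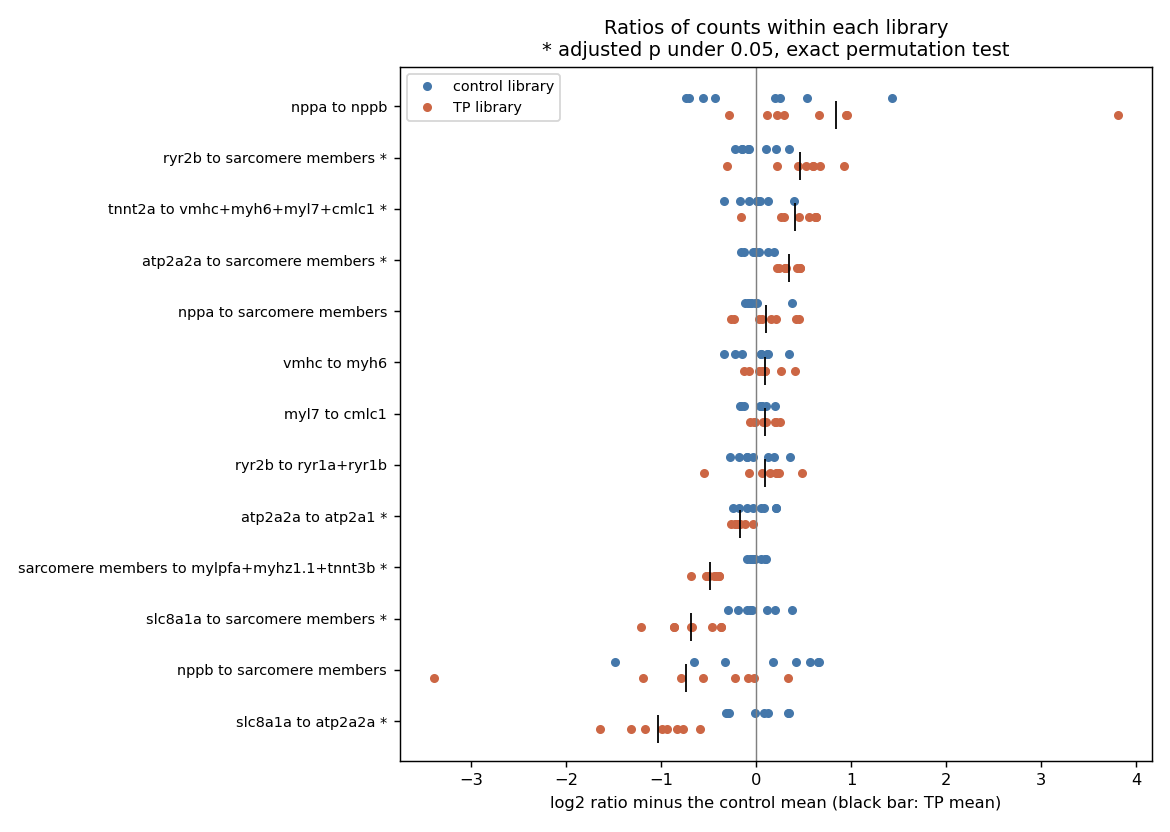
Log2 ratio of counts within each library, minus the control mean, for 13 ratios, with control libraries in blue, TP libraries in orange and the TP mean as a black bar. The groups separate for slc8a1a to atp2a2a, slc8a1a and atp2a2a to the sarcomere genes, and the sarcomere genes to fast skeletal genes; TP library 4 is far to either side in the ratios with nppb.

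At the level of annotated transcripts, 21 of the 23 had enough counts to test, and both nppb transcripts did not. edgeR called 2 up, where 3.48% of 43770 transcripts were up, and 3 down, where 36.7% were down, leaving 16 not called. With TMM factors the counts were 9 up and 1 down, and the share of all transcripts called with TMM factors is not given here. The 9 came from myl7, tnnt2a, atp2a2a and ryr2b alone, and included every annotated transcript of atp2a2a and ryr2b. Isoforms of a gene share reads, so how the counts fall among them depends on how shared reads were placed. The 2 up were ENSDART00000149737 of ryr2b (0.72, adjusted p = 9.8e-04 from edgeR) and ENSDART00000042040 of atp2a2a (0.24, adjusted p = 0.0076 from edgeR). The 3 down were the single transcript of vmhc and ENSDART00000046800 and ENSDART00000165501 of slc8a1a (-0.92 and -0.81). The other 2 slc8a1a transcripts had values of -0.80 and -0.83 and missed the threshold, with the lowest adjusted p of them at 0.016 from edgeR.

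The share of each transcript within its gene was compared for 19 transcripts. In ryr2b the shorter transcript, of 14983 bases against 19846 for the other, took 9.71% to 16.5% of the counts of the gene in control and 14.8% to 20.7% in TP libraries. Its mean share went from 12.7% ± 2.35 to 16.6% ± 2.01 (SD, n = 8; exact permutation p = 0.0034, adjusted p = 0.032 over the 19). This was the only gene with a share past an adjusted p of 0.05 over the 19. Each of ryr2b and nppb has 2 transcripts, whose shares mirror each other. The 2 shares are thus the same comparison, entered 2 times among the 19, which makes their adjusted p smaller. An adjustment with each comparison entered once was not run, so whether ryr2b would pass it is not shown. In nppb the share of ENSDART00000060765 went from 67.4% ± 18.7 to 38.1% ± 23.8 (SD, n = 8; exact permutation p = 0.016, adjusted p = 0.076), on the few counts described above. Shares within atp2a2a, myl7, tnnt2a and slc8a1a had adjusted p of 0.28 or more by the exact permutation test. The 4 slc8a1a transcripts thus had similar values, and their largest, ENSDART00000165501 of 6833 bases, had 55.4% of slc8a1a counts in control and 56.9% in TP libraries.

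To order the genes by level, counts of each transcript were divided by its length and summed per gene, as CPM per kilobase. In control libraries the means of this length-scaled level were 28.9 for atp2a2a, 22.5 for vmhc, 21.9 for myl7, 11.1 for cmlc1, 6.10 for tnnt2a, 4.57 for nppa, 1.54 for myh6, 1.28 for slc8a1a, 0.796 for nppb and 0.632 for ryr2b. Neighbours in this order did not overlap in range between myl7 and cmlc1, between cmlc1 and tnnt2a, and between nppa and myh6. All other neighbours overlapped, among them vmhc and myl7, where vmhc was the higher in 7 of 8 libraries. The annotated transcripts of cmlc1 (796 bases) and myh6 (5935 bases) are as long as their span on the chromosome, so the annotation shows no intron in either, and what this does to their counts was not tested. The pump atp2a2a is shared with slow skeletal muscle, and the share of its level that came from the heart was not measured.

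Among pools of 1 group the members did not form a tight unit. Over all 45 pairs of members, Pearson's r of log2 CPM ran from -0.86 to 0.91 in the 8 control libraries and from -0.71 to 0.81 in the 8 TP libraries. Of 90 relations 9 had an exact permutation p under 0.05 and 0 an adjusted p under 0.05. The closest pair was tnnt2a and atp2a2a in control (r = 0.91, Spearman's rho = 0.93, exact permutation p = 0.0023 and 0.0022, adjusted p = 0.073 and 0.10), and r was 0.68 without the 2 libraries farthest from the median. Over all 16 libraries, centred on the mean of their group, the score of the 5 sarcomere genes had r of 0.74 with cmlc1, 0.70 with myl7, 0.50 with tnnt2a, 0.38 with vmhc and -0.10 with myh6, all of which are part of it. Of 21411 other genes, those most like this score were si:dkey-159a18.1 (r = 0.89), mpeg1.1, a macrophage gene (r = 0.88), ftr91 (r = 0.83) and ITGB1BP2 (r = 0.79). None of the 10 genes most like the score is in the heart and muscle lists used here. Those lists do not hold every muscle gene, so this does not show that none of the 10 is active in muscle. By list, however, the median r was 0.42 for slow skeletal, 0.35 for fast skeletal and 0.19 for other cardiac sarcomere genes. It was 0.073 for all genes compared, and the other lists had medians from -0.018 to 0.11. The points share a library and its depth, and these correlations are given as a description.

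The paralogs of the members were counted as well. Several of them are skeletal muscle genes, so their values are those of the whole larva and not of the heart. Of 24 tested, 6 were up, 6 down and 12 not called by edgeR, against 4.59% up and 41.9% down of all genes. With TMM factors 13 were up and 4 down, against 15.9% and 16.5% of all genes. Near-identical copies may have exchanged reads. For the exchanger, slc8a1b fell beside slc8a1a, with a log2 fold change of -0.90 ± 0.15 (SE; adjusted p = 3.9e-05 in edgeR, and -0.54 with TMM factors), and slc8a4b also fell (-0.68, or -0.32 and not called with TMM factors). slc8a2a, slc8a2b, slc8a3 and slc8a4a had values of 0.35, 0.03, 0.13 and -0.37 and did not pass with library totals. With TMM factors slc8a3 was called up (0.49), and slc8a2a, slc8a2b and slc8a4a were not called. For the pump, atp2a1 and atp2a1l of fast muscle rose (0.36 and 0.27), atp2a3 fell (-0.49, not called with TMM factors) and atp2a2b, the second SERCA2 gene, was at -0.16 (adjusted p = 0.41 from edgeR). For the release channel, ryr3 rose (0.34), and ryr1a and ryr1b had 0.25 and 0.20 and did not pass with library totals. With TMM factors ryr1a and ryr1b were called up (0.60 and 0.53).

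Among the sarcomere paralogs of the members, vmhcl, myh7ba, myl4, tnnt2b and tnnt1 did not pass with library totals. Their log2 fold changes were -0.08, 0.09, 0.22, 0.31 and 0.14. With TMM factors myh7ba, myl4, tnnt2b and tnnt1 were called up (0.43, 0.56, 0.65 and 0.49), and vmhcl was not (0.27). myh7bb, a slow-type myosin, had a log2 fold change of -0.69 with library totals and -0.35 with TMM factors, and was called down with both. The skeletal genes myl1, tnnt3a and tnnt3b rose, with 0.42, 0.51 and 0.36. Beside nppa and nppb, the C-type peptide genes nppc and nppcl fell by 1.90 and 1.54 on the log2 scale, nppc from 0.873 ± 0.140 to 0.235 ± 0.194 CPM (SD, n = 8). The natriuretic system held 8 tested genes beside nppa and nppb, of which edgeR called 0 up and 6 down (0 and 7 at an unadjusted p under 0.05, 1 and 5 with TMM factors, 1 and 6 with DESeq2 and 0 and 6 with limma). Over all genes edgeR called 4.59% up and 41.9% down, and with TMM factors 15.9% and 16.5%. The 6 down included furinb, a proprotein convertase gene that fell by 1.22, and the receptor genes npr1b, npr2 and npr3. The 2 not called were furina (-0.03, control mean 53.2 CPM) and npr1a (-0.24). With TMM factors furina was called up (0.31) and npr1a was not called (0.11).

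**Figure D4:**
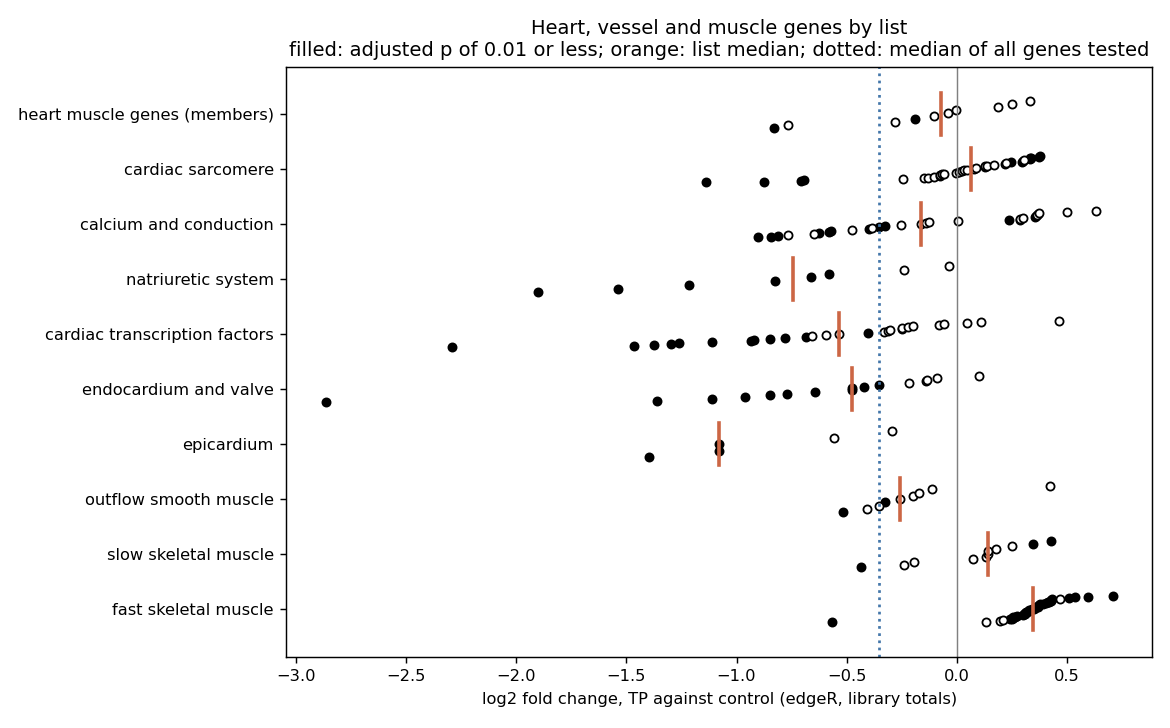
Log2 fold change, TP against control from edgeR on library totals, of the 10 heart muscle genes and of the tested genes of 9 lists that leave them out; filled points passed an adjusted p of 0.01, orange bars are list medians and the dotted line is the median of all genes at -0.35. Fast skeletal genes lie mostly above 0, heart muscle genes and other cardiac sarcomere genes around 0, and the epicardium, natriuretic, transcription factor and endocardium lists below the dotted line by their medians.

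Other genes that heart muscle and its neighbouring cells use were counted by list. Of 34 further sarcomere genes that heart muscle uses, many of them shared with skeletal muscle, 8 were up, 4 down and 22 not called (20 up and 3 down with TMM factors), with a median of 0.06. Those that changed most were tcap of the Z-disc (-1.14), 1 of a pair of genes named nexn (-0.88) and fhl2b (-0.71). That nexn gene had a control mean of 1.15 CPM. The other nexn gene, with a control mean of 16.5 CPM, was at -0.15 and not called. Of 29 further calcium and conduction genes, 4 were up, 9 down and 16 not called (8 and 2 with TMM factors), with a median of -0.16. slc8a1b led them, followed by kcnq1.1, a potassium channel of repolarisation (-0.84), and atp1a1a.1, a sodium pump (-0.81). pln, which encodes phospholamban, the inhibitor of SERCA2, was at -0.35 (adjusted p = 0.0075 from edgeR) and at -0.0050 with TMM factors. All of these lists were put together with results of these data known, and their counts are read beside 4.59% up and 41.9% down of all genes.

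Cardiac transcription factor genes held 0 up, 12 down and 15 not called of 27 (4 and 9 with TMM factors), a share down near the 41.9% of all genes, with a median of -0.53. Those called with the largest change were isl1 (-2.29), tbx2a (-1.47) and nr2f1a (-1.37). The endocardium and valve list, cells that line the heart muscle, held 0 up and 11 down of 16 (0 and 7), led by klf2a (-2.87), twist1b (-1.36) and egfl7 (-1.11). The epicardium list held 0 up and 3 down of 5 (0 and 3): tcf21 (-1.40), aldh1a2 (-1.08) and wt1a (-1.08). In outflow smooth muscle 0 of 9 were up and 2 down (0 and 0 with TMM factors). Those down were 1 of a pair of genes named mylka (-0.52) and cnn1b (-0.33). The other mylka gene, with a control mean of 1.15 CPM, was at -0.41 and not called. Many of these genes are also active outside the heart, so their values are those of the whole larva. The counts of 0 up in these 4 lists are from edgeR, and at an unadjusted p under 0.05 they were 1 for transcription factors and 0 for the others. limma gave 0 up in each, and DESeq2 4 for transcription factors, 2 for smooth muscle and 0 for the other lists.

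Fast skeletal muscle genes rose as a group under each of the 3 scalings, each relative to the other transcripts of a library. The 5 cardiac sarcomere genes had 0 up with library totals and 2 with TMM factors. Of 38 fast skeletal genes 33 were up, 1 down and 4 not called (37 and 0 with TMM factors), with a median of 0.35, and their summed level went from 79280 to 93444 CPM in control libraries to 101403 to 118786 CPM in TP libraries. pvalb3 (0.71) and mylpfb (0.60) led the rises, and acta1a fell by 0.57. Of 11 slow skeletal genes 2 were up, tnnc1b (0.43) and myl10 (0.35), 1 down, prdm1a (-0.43), and 8 not called (8 and 0 with TMM factors). Slow muscle also expresses atp2a2a, and its part in the values of that member was not tested. None of the markers in these 2 lists was at 0 in all libraries.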

How the data were processed

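RNA from 16 pools of 30 whole larvae was sequenced as paired 75 bp reads from stranded total RNA libraries. Per the paper's methods, the authors aligned pairs to Ensembl release 84 transcripts with Bowtie2. The deposited values are raw counts per transcript, not normalized, with positions on GRCz10 (the build in the submitters' notes). FastQC, SAMtools and limma are also in the submitters' processing notes. Their versions and the use of strand in counting were not stated in the paper or labels, and a gene cannot be separated from an overlapping or antisense neighbour. All counts were even (0 odd values), as they would be if both reads of a pair were counted. Small counts, such as those of nppb, would then rest on fewer read pairs than their number. Whether this was so was not stated.

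Counts were summed per gene ID; 209 transcripts without one (0.220% to 0.282% of counts) were left out of gene sums. edgeR 4.0.16 in R 4.3.3 fitted quasi-likelihood models of the groups on library totals, after its expression filter, with Benjamini-Hochberg adjustment over all genes tested. The fit was also run on simulated data in which few genes changed, as many up as down. That run cannot test the choice of scaling. Standard errors are the log2 fold change over the square root of F. Permutations ran in Python 3.11.15 with scipy 1.17.1. The members and gene lists were chosen with earlier results of these data known. Genes named are the members, their tested paralogs, ratio denominators, up to 3 called genes of largest change per list, and those most like the sarcomere score (at least 1 CPM). Outside that rule npr1a, npr1b, npr2, npr3, furina and pln were named after their values were seen.

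Alternatives were TMM, DESeq2 1.42.0, limma 3.58.1 (pseudocount 1), other filters, thresholds, totals, a replicate block, a term for library numbers and single omissions. Replicate libraries differed by more than sampling noise (chi-square per degree of freedom at least 3.86). The study calls the pools biological replicates. No file was at hand from which to print sequences.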

Additional observations from a re-analysis of the deposited data

Results flagged for a closer look

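In 5 of 46 groups of 8 libraries tested, the highest or lowest library lay apart from the others by a gap larger than Dixon's 95% limit, and chance gives about 1 in 20. TP library 8 had the lowest ratio of tnnt2a to the 4 myosin genes, 0.0304. Control library 4 had the highest ratio of nppa to the sarcomere genes, 0.0545. TP library 4 stood apart through its 2 counts of nppb, with the lowest ratio of nppb to the sarcomere genes, 0.000318, and the highest ratio of nppa to nppb, 177. TP library 1, which also had the lowest ryr2b level, had the lowest ratio of sarcomere genes to fast skeletal genes, 0.00464.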

How the results depend on the processing

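slc8a1a kept its direction and call under all 29 alternatives (-0.91 to -0.48). With TMM factors, log2 fold changes were 0.15 for vmhc, 0.064 for myh6, 0.34 for myl7, 0.24 for cmlc1, 0.60 for tnnt2a, 0.30 for nppa, 0.53 for atp2a2a and 0.68 for ryr2b, with 4 members up and 1 down. With DESeq2 they were 0.16, 0.072, 0.35, 0.25, 0.60, 0.31, 0.54 and 0.69 in the same order, again with 4 up and 1 down. Both scalings move the median of all genes to near 0. Totals without ribosomal and mitochondrial transcripts gave -0.084 for vmhc, 0.10 for myl7, 0.064 for nppa, 0.29 for atp2a2a and 0.44 for ryr2b, with 2 up and 1 down. An adjusted p of 0.05 added myh6 (-0.28), atp2a2a (0.19) and ryr2b (0.33), which gave 2 up. limma gave -0.19 for vmhc (adjusted p = 0.011), 0.0057 for myl7 and 1 down. A term for the library numbers gave -0.28 for myh6, 0.00075 for myl7, 0.19 for atp2a2a, and 1 up and 3 down. The 4 against 4 fits, added after seeing the data, gave in libraries 1 to 4 -0.23 for vmhc and 1 down, and in libraries 5 to 8 -0.15 for vmhc, 0.073 for myl7, 0.023 for cmlc1, 0.015 for nppa, 0.63 for ryr2b, 1 up and 1 down. The causes of these shifts were not tested. Shares of all genes up and down were 15.9% and 16.5% with TMM factors, and 17.9% and 17.8% with DESeq2. They were 6.16% and 30.7% without ribosomal and mitochondrial transcripts, and 6.54% and 52.7% at an adjusted p of 0.05. With limma they were 4.56% and 40.7%, and with the term for library numbers 5.08% and 43.6%. Libraries 1 to 4 gave 1.58% and 25.7%, and libraries 5 to 8 gave 5.83% and 27.6%.

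Last digits of the sample titles did not pair the libraries (correlations of same-numbered libraries from -0.20 to 0.31, with 2 of 8 closest to their own number). With a replicate block on them vmhc was at -0.19 (adjusted p = 0.011), myl7 at 0.0044 and 1 member was down; over all genes 1100 were up and 9602 down, against 1122 and 10258.

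Leaving out single libraries gave -0.20 to -0.16 for vmhc, -0.31 to -0.24 for myh6, -0.025 to 0.043 for myl7, -0.15 to -0.039 for cmlc1, -0.082 to 0.021 for nppa, 0.16 to 0.21 for atp2a2a and 0.25 to 0.41 for ryr2b, with 0 to 1 members up and 1 to 3 down. Over all genes 4.19% to 5.06% were then up and 37.2% to 42.9% down. The ratio of nppa to nppb ran from 0.42 to 1.05 and that of atp2a2a to atp2a1 from -0.21 to -0.14. The remaining ratios kept their side of an adjusted p of 0.05 in every omission, though nppb to the sarcomere genes ran from -0.95 (without control library 7) to -0.36 (without TP library 4) and ryr2b to ryr1a and ryr1b from 0.035 (without TP library 6) to 0.18 (without TP library 1).

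Over all genes, TMM gave 3895 up and 4038 down, DESeq2 4379 and 4359. DESeq2 list counts, up and down, were 24 and 3 for other sarcomere genes, 8 and 2 for calcium and conduction, 1 and 6 natriuretic, 4 and 10 transcription factors, 0 and 7 endocardium, 2 and 0 smooth muscle, 8 and 0 slow muscle and 15 and 4 paralogs. nppb was below the filter, and had no value, with halved counts and in the fit on 1 leading transcript per gene. nppb had 2 to 36 counts per library, the fewest in TP library 4, which was not a shallow one (40651250 counts).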
